A study of Mus musculus with 16 samples.

Results

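The 10 genes described here encode 6 matrix metalloproteinases (MMPs: *Mmp2*, *Mmp3*, *Mmp9*, *Mmp12*, *Mmp14* and *Mmp19*) and the 4 tissue inhibitors of metalloproteinases (TIMPs: *Timp1*, *Timp2*, *Timp3* and *Timp4*). They were chosen by name, with earlier results of these data known, from the 20134 named genes on the arrays. Of the 26582 probes with a gene name, 12 belonged to them. *Mmp12* and *Timp2* had 2 probes each and the other genes 1, and each gene is described by its brightest probe unless stated. All 10 were measured in the right, unlesioned neocortex rostral to bregma, from C57BL/6J mice that were unoperated or had undergone aspiration of the left cortex.

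Every group was 1 RNA pool, for which the methods describe 4 male animals. The control pools were unoperated cortex at postnatal day 7 (P7), P14, P35 and 10 weeks (10W). Neonatal brain hemisuction (NBH; NBI in the labels) was performed at P7 and sampled 1 week later at 14 days of age and 4 weeks later at 35 days of age. Adult brain hemisuction (ABH; ABI in the labels) was sampled 1 week later at 11 weeks of age and 4 weeks later at 15 weeks of age by the labels. By the methods the aspiration reached farther caudal and lateral in ABH than in NBH, so that age at surgery and lesion extent cannot be told apart. NBH 1W was set against P14 and NBH 4W against P35, the controls matched in age. Both ABH pools were compared with the 10W control, so that these 2 comparisons share a control pool, and the control was 1 and 5 weeks younger. No pool had a sham operation. The control pools lay in one row of each chip and the surgery pools in the other, so that position and surgery cannot be told apart.

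MMPs are zinc-dependent endopeptidases that cut collagens, laminin, proteoglycans and other proteins of the extracellular matrix, and most are made as inactive proenzymes. TIMPs bind the active site of the enzymes and block it. In the brain these proteins take part in the remodelling of the matrix around neurons and vessels during development and after injury. Mmp14 is anchored in the cell membrane and, together with Timp2, activates the gelatinase Mmp2, so that an inhibitor can also serve in activation.

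Each pool was hybridised to 2 arrays, once labeled with Cy3 and once with Cy5, which are repeats of the same RNA. Values are therefore given for each dye, and the SD between the 2 dyes (n = 2 arrays) is technical, without a test between conditions. A level is the log2 of a probe's signal after division by the 75th percentile of its array, and levels of different probes were not compared. A gene was called higher at 1.5-fold or more and lower at 0.75-fold or less with both dyes, provided that either pool was well above background with both dyes. Over the 16 arrays, 60.2% to 72.2% of the gene spots were well above background. All 8 neuronal markers examined, among them *Snap25* and *Slc17a7*, were above background in every pool. In tissue RNA, a larger number of cells of a type and more RNA per cell cannot be told apart.

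Of the 10 members, 7 had a promoter entry in the RefSeq table for GRCm38.p6. The 250 bases before the start are shown for 3 of the 4 genes called higher at 1 week after adult surgery. *Mmp2*, which was also called higher, had no entry. All 3 lie on the plus strand. They are *Mmp3* at chr9:7445572-7445821, *Mmp14* at chr14:54431348-54431597 and *Timp1* at chrX:20869916-20870165. Capitals mark matches on either strand to AP-1 (TGANTCA), PEA3 (AGGAAG) or the TATA box (TATAAA).
Mmp3: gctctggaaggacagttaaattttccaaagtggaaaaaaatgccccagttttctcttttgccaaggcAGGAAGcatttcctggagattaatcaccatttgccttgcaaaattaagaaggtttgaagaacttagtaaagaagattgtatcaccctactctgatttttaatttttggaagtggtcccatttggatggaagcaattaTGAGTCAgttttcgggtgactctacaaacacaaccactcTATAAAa
Mmp14: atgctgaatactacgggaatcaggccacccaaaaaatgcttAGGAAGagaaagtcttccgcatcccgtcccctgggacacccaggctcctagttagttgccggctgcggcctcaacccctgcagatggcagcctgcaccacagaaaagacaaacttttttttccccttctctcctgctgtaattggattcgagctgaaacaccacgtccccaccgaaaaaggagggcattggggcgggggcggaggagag
Timp1: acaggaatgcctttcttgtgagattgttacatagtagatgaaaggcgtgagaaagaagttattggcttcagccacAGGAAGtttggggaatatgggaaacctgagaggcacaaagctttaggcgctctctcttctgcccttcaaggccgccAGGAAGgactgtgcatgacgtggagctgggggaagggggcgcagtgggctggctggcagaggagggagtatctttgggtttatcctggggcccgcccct
The *Mmp3* sequence held 1 match to each motif, with AP-1 beginning 46, PEA3 183 and the TATA box 7 bases before the start. *Mmp14* held 1 PEA3 match, 209 bases before the start. *Timp1* held 2 PEA3 matches, 175 and 99 bases before the start, and neither AP-1 nor TATA letters. No match overlapped another in these 3 sequences. Among the 32851 entries of the table, 6.75% held the AP-1 letters, 29.5% the PEA3 letters and 12.4% the TATA letters in the same stretch. *Mmp12*, called lower in the same comparison, had 2 entries, 1 with an AP-1 match 44 bases and the other with a PEA3 match 87 bases before the start.

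In unoperated cortex, *Mmp2*, *Mmp14* and *Timp1* had their highest control level at P7 and were lower in the older pools. *Mmp2*, or gelatinase A, which degrades denatured and basement membrane collagen, had a level of −1.97 with Cy3 and −1.83 with Cy5 at P7. It was −2.71 and −2.74 at P14, −3.58 and −3.53 at P35, and −3.41 and −3.71 at 10W. The arrays of the last 2 ages overlapped, while P7, P14 and P35 were each apart from the next. From P7 to 10W, *Mmp2* was at 0.316-fold, *Mmp14* at 0.532-fold and *Timp1* at 0.580-fold, and all 3 were called lower. *Mmp12* was above background on both arrays at 10W and on neither at P7, and was called higher at 10W by at least 1.69-fold. Its spot intensities were near background, 163 and 153 at 10W and 124 and 114 at P7. The second *Mmp12* probe was above background with Cy5 at P7 (160.5) and on neither 10W array (105 and 74). Of all gene spots, 71.3% and 71.0% were well above background at 10W, against 63.7% and 64.0% at P7, and the part of this in the call was not tested. Calls between ages were not computed under the alternatives. Between these ages 19.4% of 16347 compared genes were called higher and 22.8% lower, so that an age-dependent level was common on these arrays.

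**Figure D1:**
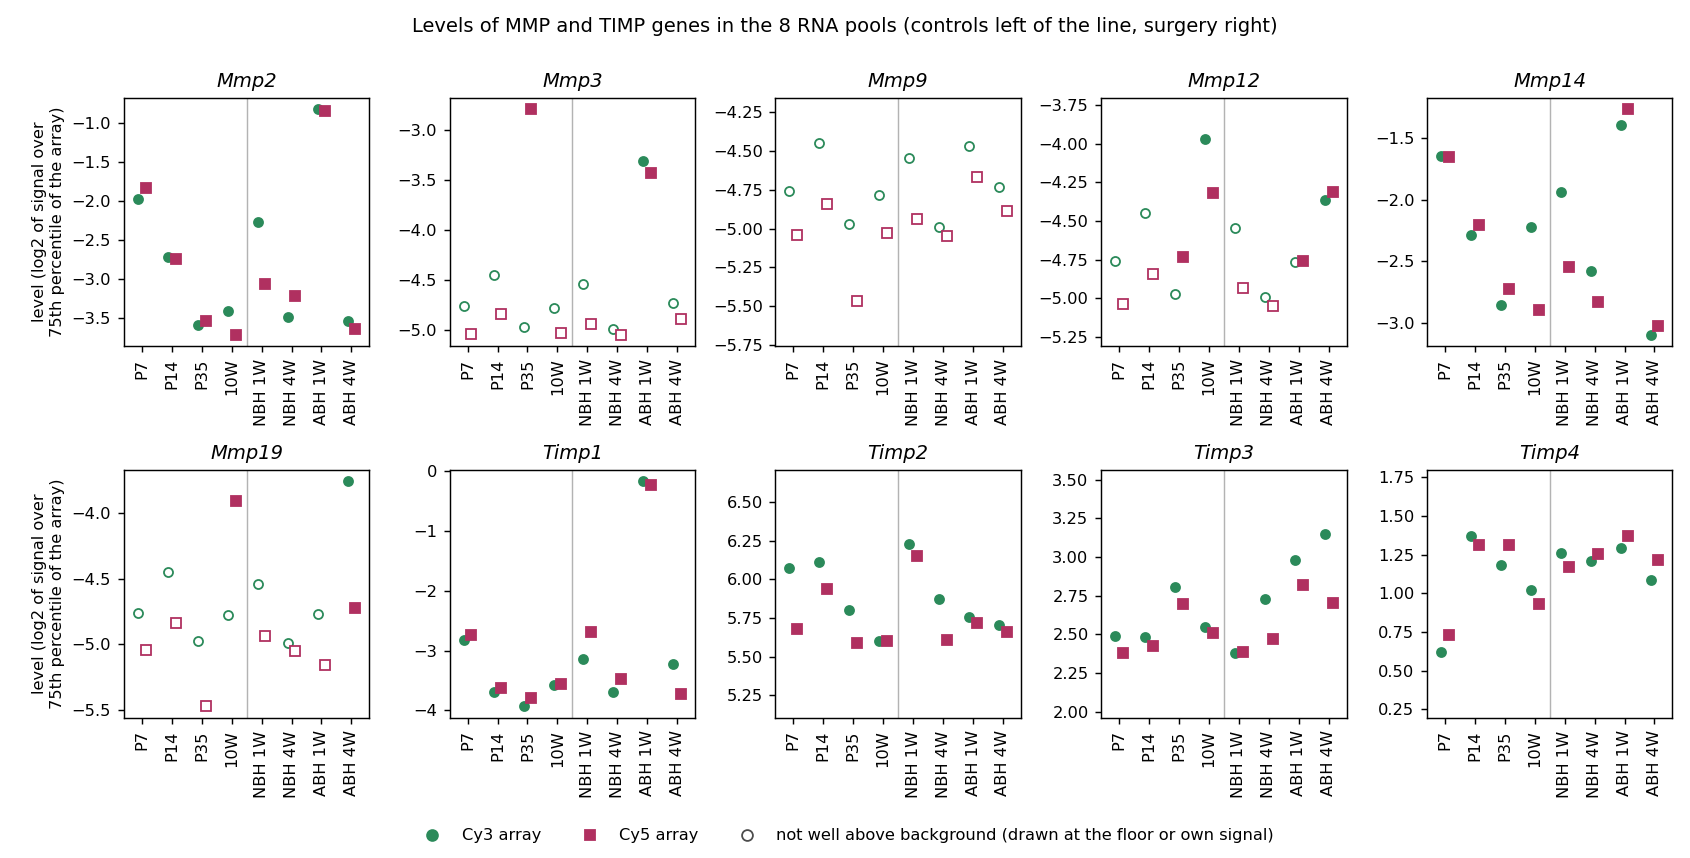
Levels of the 10 genes (vertical axis, log2 of the signal over the 75th percentile of the array) in the 4 control pools and, right of the line, the 4 surgery pools. Circles are Cy3 and squares Cy5 arrays, open symbols are not well above background, and the vertical axes differ between genes. *Mmp2*, *Mmp14* and *Timp1* stand highest in ABH 1W with both dyes, and *Mmp3* has a single bright Cy5 array at P35.

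At 1 week after adult surgery, 4 of the 8 members compared were called higher and 1 lower. Among all 16297 genes compared, 6.07% were called higher and 9.06% lower. The median log2 fold change was 0.80 over the members and −0.05 over all compared genes. *Timp1*, *Mmp2*, *Mmp3* and *Mmp14* were the higher members and *Mmp12* the lower one. Of all calls in this comparison, 40.1% were higher, a share that became 78.3% with median centring and 68.0% with quantile normalization.

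*Timp1*, a secreted inhibitor that acts best on soluble MMPs, showed the largest change of the members. Its level was −3.57 with Cy3 and −3.56 with Cy5 in the 10W control, and −0.17 and −0.23 in ABH 1W. The fold change was 10.3 (log2 fold change 3.37 ± 0.05, SD of 2 dyes), and 28 of the 16297 genes had a larger one. In the 6 remaining pools its level lay between −3.93 and −2.69, so that ABH 1W was above every other pool on both arrays.

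*Mmp2* was at −3.41 and −3.71 in the 10W control and at −0.82 and −0.84 in ABH 1W. It was 6.61-fold higher (log2 fold change 2.73 ± 0.20), and 58 genes had a larger change. The ABH 1W level also exceeded the P7 control, the next pool in order, by 1.06 on the log2 scale. The other gelatinase of the family, *Mmp9* or gelatinase B, was not well above background with all of its spots on any of the 16 arrays.

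*Mmp14*, the membrane-bound activator of Mmp2, was at −2.22 and −2.90 in the 10W control and at −1.39 and −1.26 in ABH 1W. Its change differed between the dyes, with log2 fold changes of 0.84 with Cy3 and 1.63 with Cy5 and a mean of 2.35-fold. The SD between the dyes was 0.48 in the 10W control and 0.09 in ABH 1W. ABH 1W stood above the P7 control by 0.32, without overlap of the arrays.

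*Mmp3*, or stromelysin, which cuts proteoglycans and can activate other proenzymes, was well above background with both dyes in ABH 1W alone. Its level there was −3.31 with Cy3 and −3.43 with Cy5, and the change from the 10W control, where it was not well above background, was at least 2.90-fold. The spot intensities were 195 and 186 in ABH 1W, against 98.0 and 104 in the 10W control. At P35, the Cy5 array of the control gave −2.80, above both ABH 1W arrays, while the Cy3 array was not above background. With that P35 pool as the control, *Mmp3* was no longer called. With normexp background correction its log2 fold change was 0.80 in place of 1.53, below the bound given above, and those of *Timp1* and *Mmp2* were 2.69 and 1.98, all 3 still called.

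*Mmp12*, the elastase of macrophages, was at −3.97 and −4.32 in the 10W control and at −5.35 and −4.76 in ABH 1W, where 1 of the 2 arrays was well above background. It was called lower by at least 1.54-fold, from spot intensities of 163 and 153 in the control and 131 and 139 after surgery. In ABH 1W, 62.8% and 68.2% of all gene spots were well above background, against 71.3% and 71.0% in the 10W control, and the part of this difference in the call was not tested. With quantile normalization its log2 fold change was −0.03, and it was not called with that, with median centring, with normexp background correction, with limits of 1.5-fold or 2-fold in both directions, with all 4 arrays required above background, or against P35. The second *Mmp12* probe was not above background on both arrays of any pool.

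**Figure D2:**
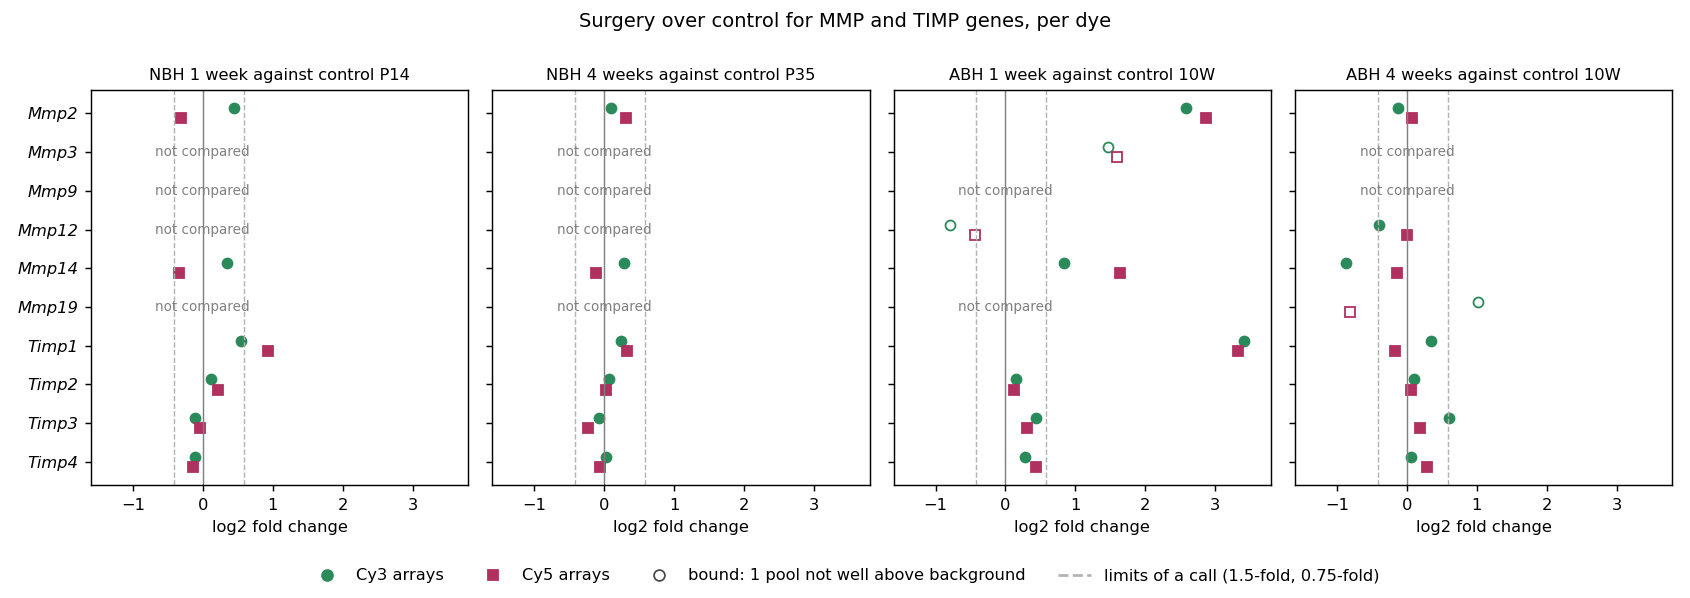
Log2 fold change of surgery over control (horizontal axis) for each of the 10 genes in the 4 comparisons, with Cy3 as circles and Cy5 as squares. Open symbols are bounds, dashed lines the limits of a call, and genes without a pool above background on both arrays are written as not compared. The 5 calls all fall in ABH 1 week, where *Timp1* lies at 3.41 and 3.33 and *Mmp2* at 2.59 and 2.86.

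The 3 other inhibitors were above background in all 8 pools and were not called with their brightest probe in ABH 1 week. *Timp3*, which stays bound to the matrix and also blocks ADAM proteases, was at 2.55 and 2.51 in the 10W control and at 2.98 and 2.82 in ABH 1W. *Timp4* was at 1.02 and 0.93 in the control and at 1.30 and 1.37 in ABH 1W. Both were higher with both dyes, by 1.29-fold and 1.28-fold, below the limit of a call. With median centring, which moved the median of all genes from −0.05 to 0.33 in this comparison, their log2 fold changes were 0.75 and 0.74 and both were called, and relative to that median they stood at about the same place as before.

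The probes of *Timp2*, which both inhibits MMPs and helps Mmp14 to activate Mmp2, did not give the same result. The brighter probe reached the highest intensity that the arrays recorded, 65497 units, on 4 arrays (both of P7, and the Cy5 arrays of P14 and NBH 1W). In the 10W control its intensity was 44520 with Cy3 and 51585 with Cy5, and in ABH 1W it was 53204 and 56246, with log2 fold changes of 0.15 and 0.12. The second probe read 1776 and 2058 in the 10W control and 5304 and 6004 in ABH 1W, and was 2.92-fold higher with log2 fold changes of 1.49 and 1.61. In the other 7 pools the second probe stayed between 1769 and 2555. The second probe was not called in any other comparison, where its folds were 1.11, 0.964 and 1.13 for NBH 1 week, NBH 4 weeks and ABH 4 weeks. How much of the difference comes from the brighter probe being near the ceiling, and how much from what the probes bind, was not tested.

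**Figure D3:**
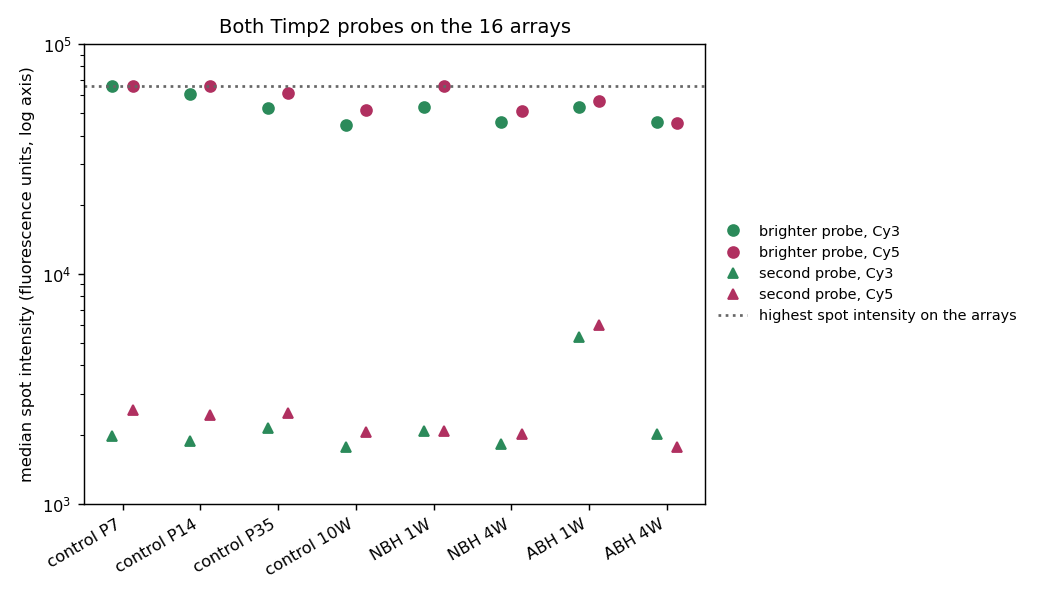
Median spot intensity of both *Timp2* probes (vertical axis, fluorescence units, logarithmic) on the 2 arrays of each of the 8 pools. The brighter probe (circles) runs along the dotted line of the highest intensity recorded, and the second probe (triangles) stands at 5304 and 6004 in ABH 1W, above all its other arrays.

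At 1 week after neonatal surgery, 0 of the 6 members compared were called, against 0.944% higher and 1.08% lower among 15458 genes. The member nearest to a call was *Timp1*, at −3.68 and −3.62 in the P14 control and at −3.14 and −2.69 in NBH 1W. Its log2 fold changes were 0.54 with Cy3 and 0.94 with Cy5, a mean of 1.67-fold, and 230 genes had a larger change. The 4 arrays did not overlap between the pools, but the Cy3 value was under the limit of 1.5-fold, and with the Cy5 arrays alone *Timp1* was called. *Mmp2* gave 0.45 with Cy3 and −0.32 with Cy5, and *Mmp14* gave 0.35 and −0.34, so that neither had a direction common to the dyes. *Timp3* was at 0.951-fold and *Timp4* at 0.916-fold. *Mmp3*, *Mmp9*, *Mmp12* and *Mmp19* were not above background on both arrays of either pool and were not compared. In the same comparison 3 of 7 markers of macrophages in injured tissue were called higher, among them *Lgals3* at 2.16-fold, and their summed signal was 75.2 against 65.5 at P14. Of the choroid plexus markers 7 of 9 were higher, with a summed signal of 40.2 against 1.42. The general list of microglia and macrophages had 0 of 8 higher (96.2 against 98.0) and the astrocyte list 0 of 10 (156 against 144). The part of any of these cell types in the level of *Timp1* was not tested.

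At 4 weeks after neonatal surgery, again 0 of the 6 members compared were called, with 0.422% of 15862 genes called higher and 1.94% lower. *Timp1* was at −3.93 and −3.80 in the P35 control and at −3.70 and −3.47 in NBH 4W, or 1.21-fold. *Mmp2* was at −3.48 and −3.22 in NBH 4W, 1.15-fold above P35, while *Mmp14* was at 1.06-fold and *Timp2* at 1.03-fold. *Timp3* stood at 0.900-fold and *Timp4* at 0.990-fold. The same 4 genes as at 1 week were not compared.

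At 4 weeks after adult surgery, 0 of the 8 members compared were called, with 0.799% of 16267 genes called higher and 0.676% lower. The genes that were highest at 1 week had levels near those of the 10W control, with *Timp1* at −3.23 and −3.73 (1.06-fold) and *Mmp2* at −3.53 and −3.64 (0.981-fold). *Mmp14* was at −3.10 and −3.03, its lowest level of the 8 pools, with log2 fold changes of −0.88 and −0.14. *Mmp3* was again not above background. *Timp3* had its highest mean level in this pool, 3.15 with Cy3 and 2.70 with Cy5, and was 1.31-fold above the 10W control. The mean was only 0.02 above that of ABH 1W, the arrays of the pools overlapped, and with Cy5 ABH 1W was higher. The choroid plexus list, a tissue in which *Timp3* is known to be expressed, had 7 of 9 compared markers called higher in this pool, and its summed signal was 32.7 times the 75th percentile against 1.70 in the 10W control. In ABH 1W, where *Timp3* was at 2.98 and 2.82, the summed signal of the list was 1.68. The summed signal was also high in NBH 1W (40.2) and NBH 4W (19.2), in which *Timp3* was at 2.38 and 2.60 on average. The part of choroid plexus RNA in the *Timp3* level was not tested.

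*Mmp19*, a secreted enzyme of basement membranes, was above background on both arrays of ABH 4W alone, at −3.76 with Cy3 and −4.72 with Cy5. Against the 10W control, where 1 array was above background, the dyes gave log2 fold changes of 1.02 and −0.81, and no direction is read from them. *Mmp9* levels ran from −6.17 to −4.47 over the 16 arrays, with none counted as well above background. A probe counted so only where all of its spots passed, and the *Mmp9* values average several spots. Its highest levels were in ABH 1W, −4.47 with Cy3 and −4.67 with Cy5, against −4.90 and −5.60 in the 10W control. These ABH 1W levels lay above the lowest signals well above background on the same arrays, −4.77 and −5.16. By this rule *Mmp9* was not compared, and no fold change is given for it.

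Among the control and surgery pools, the mean levels of *Timp3* and *Timp4* covered a range of 0.54 and 0.66 on the log2 scale, against 3.66 for *Timp1*, 2.75 for *Mmp2* and 1.74 for *Mmp14*. In the order of the pools, *Timp1* in ABH 1W was followed by P7 and NBH 1W, whose arrays overlapped, and then by ABH 4W, 10W, NBH 4W and P14, of which each overlapped with the next. *Mmp2* in ABH 1W was followed by P7, then by NBH 1W and P14, which overlapped. *Timp4* was lowest at P7, at 0.62 and 0.73, and from P14, its highest pool, down to ABH 4W each pool overlapped with the next.

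Across the 8 pools, *Mmp2* had a Pearson's r of 0.96 with *Mmp14* and of 0.91 with *Timp1*, and *Mmp14* had 0.81 with *Timp1*. These are descriptions over 8 points that share the ABH 1W pool and its arrays. Of 16739 genes searched, the most similar to *Timp1* were *Vim*, *Batf* and *Cd109*, each with r of 0.99. *Cd109* was at the floor of the array in 5 of the 8 pools. *Vim*, an intermediate filament gene, was at 2.05 in the 10W control and 4.53 in ABH 1W. For *Mmp2* they were *Fuca1*, *Lsp1* and *Crtap*, and for *Mmp14* they were *Tbx18*, *Osr1* and *Iqgap3*, all between 0.98 and 0.99. *Tbx18* and *Osr1*, which encode transcription factors, were at −2.64 and −2.11 in ABH 1W and at −3.41 and −2.97 in the 10W control. *Mmp3* and *Mmp12* were above background with both dyes in 1 and 2 of the 8 pools and were held at the floor of the array in most others, so that their most similar genes are not given.

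Further genes of extracellular proteolysis were higher in the same pool. Over all compared genes of ABH 1 week, 6.07% were called higher and 9.06% lower, and the counts of each list stand beside these shares. Of the 17 other metalloproteinases listed, 16 were on the arrays and 9 were compared in ABH 1 week, with 4 higher and 2 lower and a median log2 fold change of 0.33. *Mmp13*, a collagenase, was not well above background in the 10W control and was at −0.28 in ABH 1W, at least 24.7-fold higher. *Mmp11* was 1.96-fold and *Mmp23* 1.94-fold higher, and *Mmp8*, named after its value was seen, was at least 2.24-fold higher. *Mmp8* and *Mmp23* were not called with normexp correction, and *Mmp8* also not without the background filter or with all 4 arrays required above background. *Mmp7* and *Mmp10* were called lower by at least 1.64-fold and 1.81-fold, from levels of −4.09 and −4.11 in the control. Both calls were lost with quantile normalization, median centring, normexp correction and the P35 control. They were also lost with limits of 1.5-fold or 2-fold in both directions and with all 4 arrays required above background. In the other 3 comparisons none of the 6 to 8 genes compared was called.

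Of the 14 ADAM and ADAMTS proteases compared in ABH 1 week, 4 were higher and 1 lower, with a median of 0.32. *Adam8*, a membrane protease of leukocytes, was at −1.40 in the control and 1.02 in ABH 1W, or 5.34-fold higher. *Adamts2*, which removes the propeptide of procollagen, was 2.70-fold higher with its brightest probe and was not called with the mean of its probes. *Adamts9* was 1.94-fold higher. *Adamts1*, named after its value was seen, was 1.54-fold higher and *Adamts3* was at 0.742-fold. The *Adamts3* call was absent with each of the other scalings, normexp correction, symmetric or 2-fold limits, and the P35 control. *Adamts1* and *Adamts9* were also not called with normexp correction.

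In the plasminogen system, whose protease plasmin can activate several MMPs, 3 of 8 compared genes were higher in ABH 1 week and 0 were lower, with a median of 0.44. *Plau*, the urokinase that makes plasmin, was 2.31-fold higher, a call lost with normexp correction. *Serpinf2*, the inhibitor of plasmin, was at least 4.06-fold higher. None of the 7 or 8 genes compared was called elsewhere.

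Among the activators, binders and inducers of MMPs, 5 of 20 compared genes were higher and 2 lower in ABH 1 week, with a median of 0.10. The lower count was near the share over all compared genes, 9.06%, while 6.07% of all were higher. *Thbs1* and *Thbs2*, matrix proteins that bind Mmp2, were 5.24-fold and 2.94-fold higher, and *Tgfb1* was 2.16-fold higher. *Cd44*, the hyaluronan receptor that can hold Mmp9 at the cell surface, was 1.62-fold higher and *Il1b*, a cytokine, at least 1.78-fold higher. Both were named here after their values were seen, and both calls were lost with normexp correction and with 2-fold limits. The *Cd44* call was also lost against P35, and the *Il1b* call with all 4 arrays required above background. *Osm*, a cytokine, was at 0.626-fold and *Fos*, a subunit of AP-1, at 0.679-fold. *Osm* was not called with quantile normalization, median centring, normexp correction or the P35 control, and *Fos* was not called with the unscaled values or median centring. Neither was called with limits of 1.5-fold or 2-fold in both directions. In NBH 1 week *Fos* was called lower at 0.654-fold, and in NBH 4 weeks *Cd44* was called higher at 1.56-fold.

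Of the 19 matrix proteins compared that MMPs can cut, 7 were higher and 0 lower in ABH 1 week, with a median of 0.48. *Spp1*, or osteopontin, was at −2.40 in the control and 4.01 in ABH 1W, 84.9-fold higher. *Nid1*, a linker protein of basement membranes, was 3.67-fold and *Fbn1*, a microfibril protein, 3.36-fold higher. In NBH 1 week *Spp1* was at least 2.98-fold higher and was the only one of 19 compared genes called, and in the comparisons at 4 weeks 0 of 19 were called. *Spp1* also belongs to the markers of macrophages in injured tissue.

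**Figure D4:**
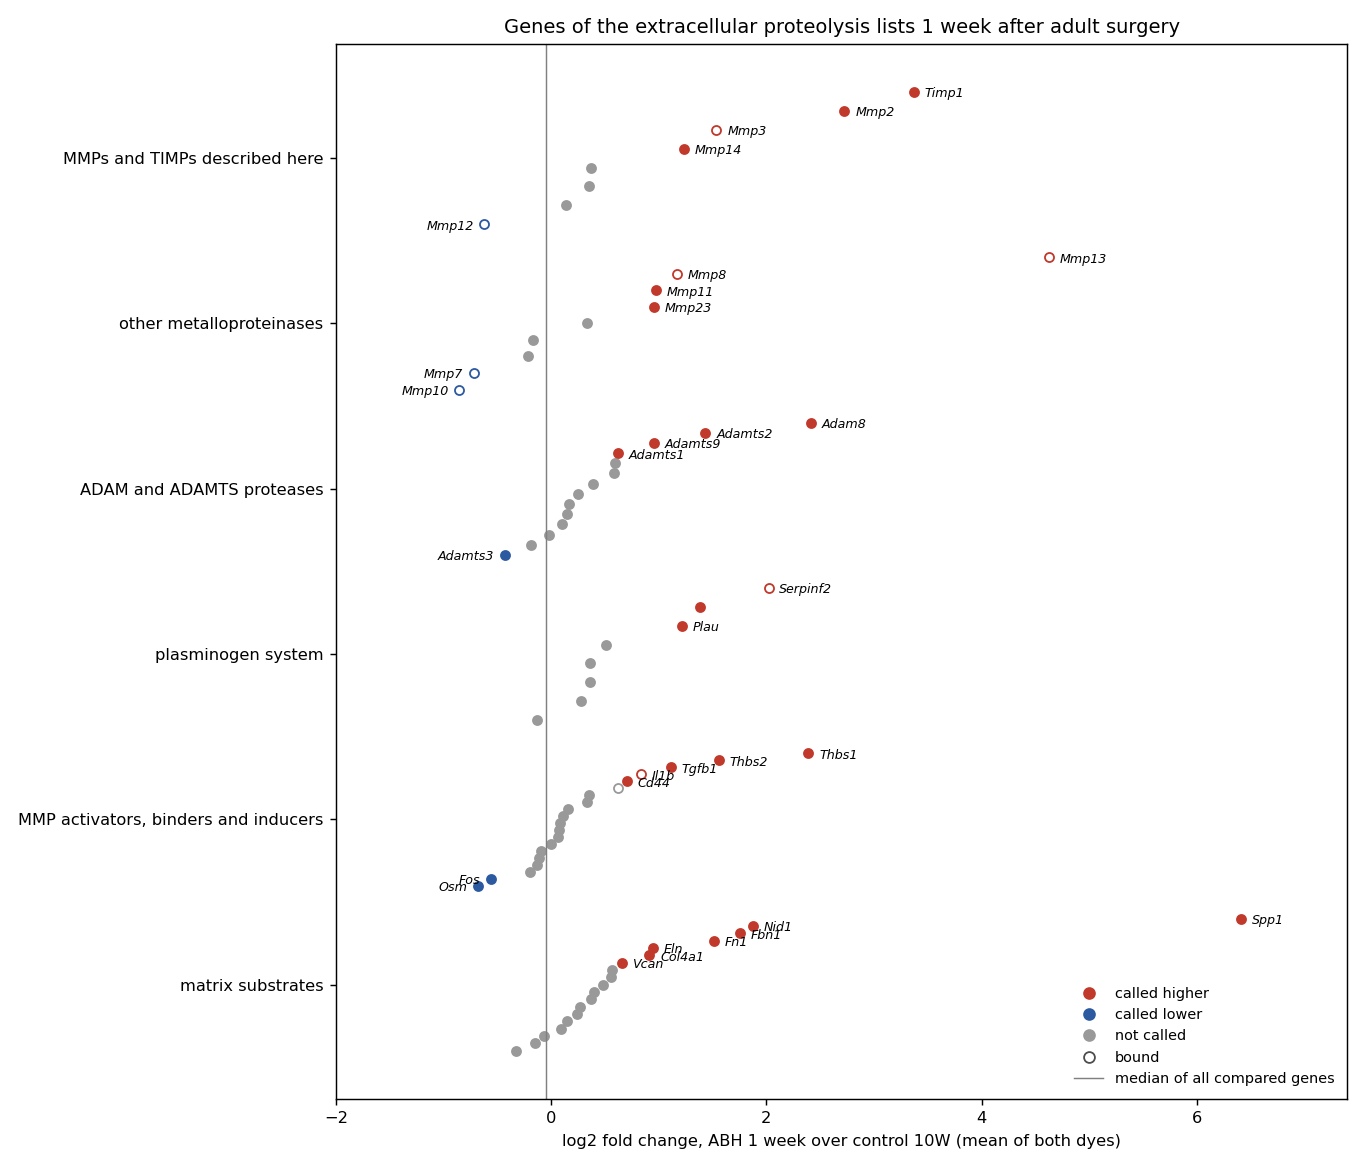
Mean log2 fold change of ABH 1W over the 10W control (horizontal axis) for the MMPs and TIMPs and for the 5 lists of related genes, with 1 point for each compared gene. Called genes are named except 1 of the plasminogen system, open symbols are bounds, and the vertical line is the median of all compared genes (−0.05). *Spp1* (6.41), *Mmp13* (4.63, a bound) and *Timp1* (3.37) lie farthest to the right.

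Markers of other cells differed in the same pool as the called members. Shares over all compared genes were again 6.07% higher and 9.06% lower. In ABH 1 week, 8 of 10 compared markers of macrophages in injured tissue were higher, and their summed signal was 104 times the 75th percentile against 57.7 to 75.2 in the 7 other pools. Among them *Gpnmb* was 127-fold and *Lgals3* 66.6-fold higher, and *Msr1* was not above background in any pool but ABH 1W. Of the leptomeningeal and fibroblast markers, 7 of 10 were higher, with a summed signal of 76.9 against 12.4 to 24.0, and *Col1a1* and *Col3a1* were each 26.2-fold higher. The general list of microglia and macrophages had 4 of 8 higher (119 against 54.8 to 100), and the astrocyte list 4 of 10 (194 against 108 to 173), with *Gfap* 8.18-fold higher. In the neutrophil list 2 of 6 were higher (4.68 against 2.08 to 3.61), with *S100a8* 8.54-fold higher and *Cxcr2* not above background. The blood list had 2 of 5 higher (143 against 100 to 143, with NBH 4W at the same value), and 1 of 10 endothelial and pericyte markers was higher (26.0 against 23.9 to 28.3). None of the 8 markers of neurons and of the 8 markers of oligodendrocytes was called, with summed signals of 270 and 137 within the ranges of the other pools, 253 to 354 and 26.7 to 203. The part of these cells in the levels of *Timp1*, *Mmp2*, *Mmp3* and *Mmp14* was not tested.

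**Figure D5:**
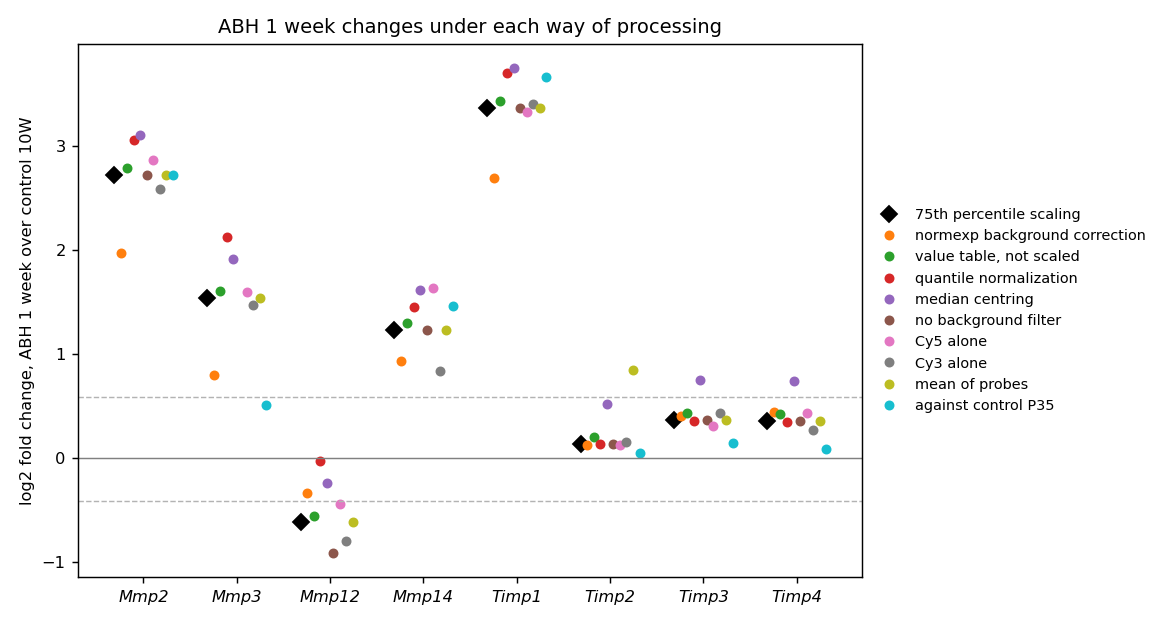
Log2 fold change of ABH 1W over the 10W control (vertical axis) for the 8 compared genes, computed in 10 ways, with the black diamond for the values in the text. *Timp1* stays between 2.69 and 3.75, *Mmp2* between 1.98 and 3.11, *Mmp3* between 0.51 and 2.12 and *Mmp14* between 0.84 and 1.63, while *Mmp12* runs from −0.91 to −0.03. Dashed lines are the limits of a call, and a way that could not compare a gene has no point.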

How the data were processed

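Agilent mouse 8 × 60 K arrays were hybridised with 8 RNA pools, each labeled with Cy3 on one array and with Cy5 on another. The authors quantified the scans with Agilent Feature Extraction 11.0.1.1, and the deposited tables hold spot intensity in arbitrary units, with a processed signal that was background-subtracted and spatially detrended. The methods describe a LOWESS normalization of the dyes, but the file headers record none for these arrays, which hold 1 pool each, and the values were not scaled between arrays. From these, control and outlier spots were dropped, spots of a probe averaged and signals divided by the 75th percentile of the array. A probe counted as well above background only where all of its remaining spots did. A signal below the lowest one well above background on its array was held there, so folds against it are bounds. Folds were taken within a dye and averaged on the log2 scale, and the limits of a call are those the methods give for genes shown by RT-PCR. The p threshold that the methods give for the arrays was not applied here. Probes were named through RefSeq accessions (GRCm38.p6 table, while the headers name mm9). Alternatives were normexp with offset 50 (limma 3.58.1, R 4.3.3), the series value table, other scalings, filters, limits, probes, dyes and controls. Other steps used Python 3.11.15, numpy 2.4.6, pandas 2.3.3 and matplotlib 3.10.9. The calling steps were also run on simulated data, and the outcome of that run is not reported here. The simulated run is not used as evidence for any call, including calls near the background and those given as bounds. The precision is limited by 1 pool per group and by the signal over background. Members and lists were chosen with earlier results of these data known. Named genes are the members, at most 3 called genes per direction of each list, and the 3 genes most correlated with a called member, of which some are not reported here.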

Additional observations from a re-analysis of the deposited data

Results flagged for a closer look

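Directions that were opposite on all arrays of a pair of comparisons were seen for 3 members, and these differences between comparisons were not tested. *Timp3* had a mean log2 fold change of −0.07 in NBH 1 week and 0.37 in ABH 1 week, a difference of 0.44, and of −0.15 in NBH 4 weeks and 0.39 in ABH 4 weeks, a difference of 0.55. *Timp4* was at −0.13 in NBH 1 week and 0.36 in ABH 1 week, a difference of 0.48. These values depend on the control pool. Against the 10W control, *Timp3* in NBH 4 weeks was at 0.07, no longer opposite to ABH 4 weeks. Against P35, *Timp3* and *Timp4* in ABH 1 week were at 0.15 and 0.08. *Mmp14* was at 1.23 in ABH 1 week and −0.51 in ABH 4 weeks, a difference of −1.74, and both values use the same control arrays. The second *Timp2* probe, used only where the probes of a gene were averaged, was 2.92-fold higher in ABH 1 week, with log2 fold changes of 1.49 and 1.61.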

How the results depend on the processing

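In ABH 1 week, *Mmp2* and *Timp1* were called higher under each alternative run, and *Mmp14* under each but the 2-fold limits. *Mmp3* was not called where all 4 arrays had to be above background, without the background filter or against P35. The members called higher there numbered 3 to 6. The 6 came with median centring, where higher calls over all 16297 compared genes went from 989 to 2058. With the mean of the probes of a gene there were 5, *Timp2* among them at a log2 fold change of 0.84. The 1 member called lower became 0 with normexp correction, quantile normalization, median centring, all 4 arrays required, symmetric or 2-fold limits, or P35. In ABH 4 weeks, 1 member (*Mmp14*) was lower with the unscaled value table and 1 (*Mmp19*) higher against P35, and in NBH 4 weeks 1 (*Mmp12*) was lower against 10W. With single dyes, the members called higher ranged from 4 to 4 in ABH 1 week, 0 to 2 in ABH 4 weeks and 0 to 1 in NBH 1 week. Those lower ranged from 1 to 2 in ABH 1 week, 1 to 1 in ABH 4 weeks and 0 to 1 in NBH 4 weeks. The lower member of ABH 4 weeks differed between the dyes, *Mmp14* with Cy3 alone and *Mmp19* with Cy5 alone. *Mmp19* was called higher there with Cy3 alone.

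For the related lists in ABH 1 week, alternatives chosen after the data were seen changed the calls as follows. The other metalloproteinases went from 6 to 2 with normexp correction, 2 with all 4 arrays required and 1 with 2-fold limits. The ADAM and ADAMTS list went from 5 to 2 with normexp correction and 2 with 2-fold limits, and to between 5 and 8 with single dyes. The plasminogen system went from 3 to 5 with median centring. The activators went from 7 to 4 with normexp correction and 2 with 2-fold limits. The matrix proteins went from 7 to 12 with median centring and 4 with 2-fold limits. Over all compared genes, median centring moved the higher calls from 989 to 2058 and the lower calls from 1477 to 572. The share of higher calls among all calls was 46.6% in NBH 1 week, but 12.3% unscaled, 31.4% with quantile normalization and 34.0% with median centring. It was 17.9% in NBH 4 weeks, but 2.03% unscaled, and 54.2% in ABH 4 weeks, but 9.18% unscaled and 68.6% with normexp correction. Unscaled, the median log2 fold change of all compared genes was −0.12, −0.20 and −0.10 in these comparisons, against 0.07, 0.03 and 0.06. Normexp on the mean signal was not run, since the scanner tables analysed here hold no mean spot signal. No paired analysis was possible because each group is 1 pool and its 2 arrays repeat the same RNA.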
